A study of Mus musculus with 15 samples.

Results

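The genes described here encode the proteasome, the protease that degrades proteins marked with ubiquitin, together with the factors that assemble and activate it. They were the genes with a probe set that names 1 gene alone and whose mouse symbol begins with Psma, Psmb, Psmc, Psmd, Psme or Psmg and a number, except the immunoproteasome genes Psmb8, Psmb9 and Psmb10, and 46 of the 19938 genes measured met that rule. Of these, 44 encode a subunit, an assembly factor or an activator. The symbol pattern also takes Psmc3ip, which encodes a cofactor of meiotic recombination, and Psme3ip1, which encodes a partner of the activator PSME3, and neither of these 2 is a proteasome subunit.

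Transcripts were measured on Affymetrix Mouse Gene arrays, with 15 arrays in 5 groups of 3. All cells were cultured mammary epithelial cells of female mice aged 8 weeks, and RNA came from dividing populations. The WT group was wild type for Myc, p53 and Rb. In the p53- group p53 had been deleted, in the p53- Rb- group p53 and Rb, in each case with Cre recombinase from an adenovirus. The p53- Myc+ and p53- Rb- Myc+ groups carried these same deletions and overexpressed MYC from a retrovirus. The labels do not give whether WT cells received a control virus, whether a group was 1 culture or clone, or how many mice were used. P-values therefore measure the spread between these samples, which may be technical.

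Values are intensities per probe set on a linear scale, and array medians ranged from 41.28 to 54.90. Rb1 was lower with the Rb- label: its intensity averaged 161.5 ± 17.3 (SD, n = 3) on p53- arrays against 57.4 ± 6.1 on p53- Rb- arrays. Among arrays labelled Myc+ it averaged 36.4 ± 10.8 on p53- Myc+ arrays against 18.7 ± 1.1 on p53- Rb- Myc+ arrays. On WT arrays the Rb1 mean was 92.8 ± 9.6. Rb1 was also lower with the Myc+ label, and p53- Myc+ arrays lay below p53- Rb- arrays. The mouse Myc probe set went against the Myc+ label, at 929.8 ± 105.5 on p53- arrays against 128.2 ± 29.5 on p53- Myc+ arrays, and the sources used here do not say whether it reads the transgene. Every statement about Myc+ therefore refers to arrays labelled Myc+. Trp53 was not analysed here. Defining markers of epithelium were far lower in the arrays labelled Myc+, and all 7 such genes fell with that label in p53- and in p53- Rb- cells. Their summed intensity was 16720 to 17220 on WT arrays, 15520 to 16630 on p53- arrays and 15200 to 17180 on p53- Rb- arrays. It was 139.8 to 209.7 on p53- Myc+ arrays and 583.6 to 670.8 on p53- Rb- Myc+ arrays. On p53- Myc+ and p53- Rb- Myc+ arrays 4 and 3 of the 7 averaged below 16. Krt19 was not absent: its mean was 1248 on p53- Rb- arrays, 75.6 ± 8.7 on p53- Myc+ arrays and 489.3 ± 26.4 on p53- Rb- Myc+ arrays, most of the sum there. The summed intensity of 8 fibroblast markers was 3567 to 4044 on WT arrays, 3197 to 3447 on p53- arrays and 5778 to 7299 on p53- Rb- arrays. It was 4451 to 5213 on p53- Myc+ arrays and 3109 to 4009 on p53- Rb- Myc+ arrays. The fibroblast list did not move as 1: with the Myc+ label 5 of its 8 genes rose and 2 fell (Thy1 and Lum) in p53- cells, and 1 rose and 6 fell in p53- Rb- cells. In such bulk RNA, fewer cells of a type and less RNA per cell cannot be told apart, and the part of cell composition in the results below was not tested.

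The 26S proteasome consists of a barrel-shaped core particle and a regulatory particle that caps it. The core has outer rings of alpha subunits (Psma genes) and inner rings of beta subunits (Psmb genes), of which PSMB5, PSMB6 and PSMB7 cut peptide bonds. The regulatory particle has a base, whose ATPases (Psmc genes) unfold substrates, and a lid (most Psmd genes) that removes ubiquitin. Dedicated chaperones build the parts without staying in the product, among them PSMG1 to PSMG4 for the core, and PSMD5, PSMD9 and PSMD10 for the base. The core can also be capped by the activators PA28 alpha/beta (Psme1 and Psme2), PA28 gamma (Psme3) or PA200 (Psme4). Subunits are needed in fixed ratios, and many of their genes are known to be induced together by the factor NRF1, which Nfe2l1 encodes.

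The promoters of genes that changed together in the arrays labelled Myc+ are shown first, because the core assembly chaperones rose and both PA28 alpha/beta genes fell there. Each line gives the 250 bases before the annotated start, 5′ to 3′ in the direction of the gene, from RefSeq on GRCm38.p6. Capitals mark matches to 1 of 4 motifs searched on both strands: TGACNNNGC (core of the antioxidant response element, to which NRF1 is known to bind), CACGTG (the E-box bound by MYC with MAX), CCAAT, and the core of the interferon response element, which is GAAA and again GAAA after 2 bases of any kind. The windows lie at chr16:95990961-95991210 on the minus strand for Psmg1, at chr5:139826895-139827144 on the minus strand for Psmg3 and at chr13:34162714-34162963 on the plus strand for Psmg4. Those of the activators lie at chr14:55578244-55578493 on the plus strand for Psme1, at chr14:55591102-55591351 on the minus strand for Psme2 and at chr11:101315963-101316212 on the plus strand for Psme3.
Psmg1: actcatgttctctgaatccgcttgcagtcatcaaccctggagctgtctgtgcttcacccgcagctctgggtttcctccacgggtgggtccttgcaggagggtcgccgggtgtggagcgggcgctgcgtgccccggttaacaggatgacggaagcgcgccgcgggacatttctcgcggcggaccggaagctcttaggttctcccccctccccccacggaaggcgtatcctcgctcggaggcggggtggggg
Psmg3: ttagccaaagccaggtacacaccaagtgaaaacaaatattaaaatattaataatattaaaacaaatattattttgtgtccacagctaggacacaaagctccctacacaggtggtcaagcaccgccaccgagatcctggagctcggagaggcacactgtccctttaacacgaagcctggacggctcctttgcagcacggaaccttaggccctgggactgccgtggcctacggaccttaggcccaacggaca
Psmg4: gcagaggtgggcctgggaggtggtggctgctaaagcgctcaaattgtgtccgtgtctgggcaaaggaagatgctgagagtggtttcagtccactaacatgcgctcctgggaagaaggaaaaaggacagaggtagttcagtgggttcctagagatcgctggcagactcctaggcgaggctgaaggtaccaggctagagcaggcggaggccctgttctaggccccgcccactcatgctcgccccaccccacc
Psme1: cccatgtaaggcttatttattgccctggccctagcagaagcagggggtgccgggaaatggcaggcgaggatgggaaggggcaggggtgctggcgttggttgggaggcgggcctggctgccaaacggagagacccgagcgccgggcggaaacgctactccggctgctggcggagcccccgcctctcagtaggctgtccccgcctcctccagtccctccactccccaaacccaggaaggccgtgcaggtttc
Psme2: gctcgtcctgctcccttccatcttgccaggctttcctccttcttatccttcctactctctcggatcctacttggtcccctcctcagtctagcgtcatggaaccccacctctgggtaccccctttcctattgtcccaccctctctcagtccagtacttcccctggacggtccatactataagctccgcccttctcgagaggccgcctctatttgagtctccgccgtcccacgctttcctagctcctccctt
Psme3: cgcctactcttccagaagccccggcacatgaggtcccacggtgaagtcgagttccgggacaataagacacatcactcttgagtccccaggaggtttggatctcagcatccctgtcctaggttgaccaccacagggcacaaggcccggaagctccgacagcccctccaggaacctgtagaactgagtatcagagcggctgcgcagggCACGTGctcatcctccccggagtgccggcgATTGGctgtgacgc

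None of the 4 motifs was found in the windows of Psmg1, Psmg3, Psmg4, Psme1 and Psme2. The window of Psme3 held CACGTG at 44 to 39 bases before the start and CCAAT, read on the opposite strand, at 14 to 10 bases before it. Promoters were matched for 38 of the 46 genes, and that of Psmg2 was not among them. CACGTG was found in 3 of these 38 (7.89%: Psma4, Psmd9 and Psme3) and in 6.05% of all 27025 promoters of that length, and TGACNNNGC in 5 (13.2%: Psmb5, Psmb6, Psmc6, Psmd12 and Psmd9) and 10.1%. CCAAT was found in 14 of the 38 (36.8%) and in 34.5% of all promoters, and the interferon response core, which was added after values had been seen, in 3 (7.89%: Psmb3, Psmd4 and Psmd9) and 3.04%. A match is a description of letters and does not show that a factor binds there.

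Most of these genes were strongly expressed. The mean intensity over all arrays was at or above the median of all genes (67.53) for 44 of the 46, and Psma8, the alpha subunit of germ cells, and Psmb11, the catalytic subunit of thymic epithelium, were the 2 below it, at 26.4 and 25.6. By group mean, 22 of the 46 were lowest in WT arrays and 14 were highest in p53- Rb- Myc+ arrays, as the plot of the 46 genes shows. Such counts were not made over all genes, so they are not read as a trait of the proteasome genes. Among all genes too, risers made up 66.5% of calls from WT to p53- and 74.2% from WT to p53- Rb-. Single arrays stood apart for these genes: 27 of the 46 were lowest of their group on p53- replicate 2 and 28 of the 46 on p53- Rb- replicate 3. The share of all genes lowest on these arrays was not counted either. The counts of passing genes are therefore also given without these 2 arrays.

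**Figure D1:**
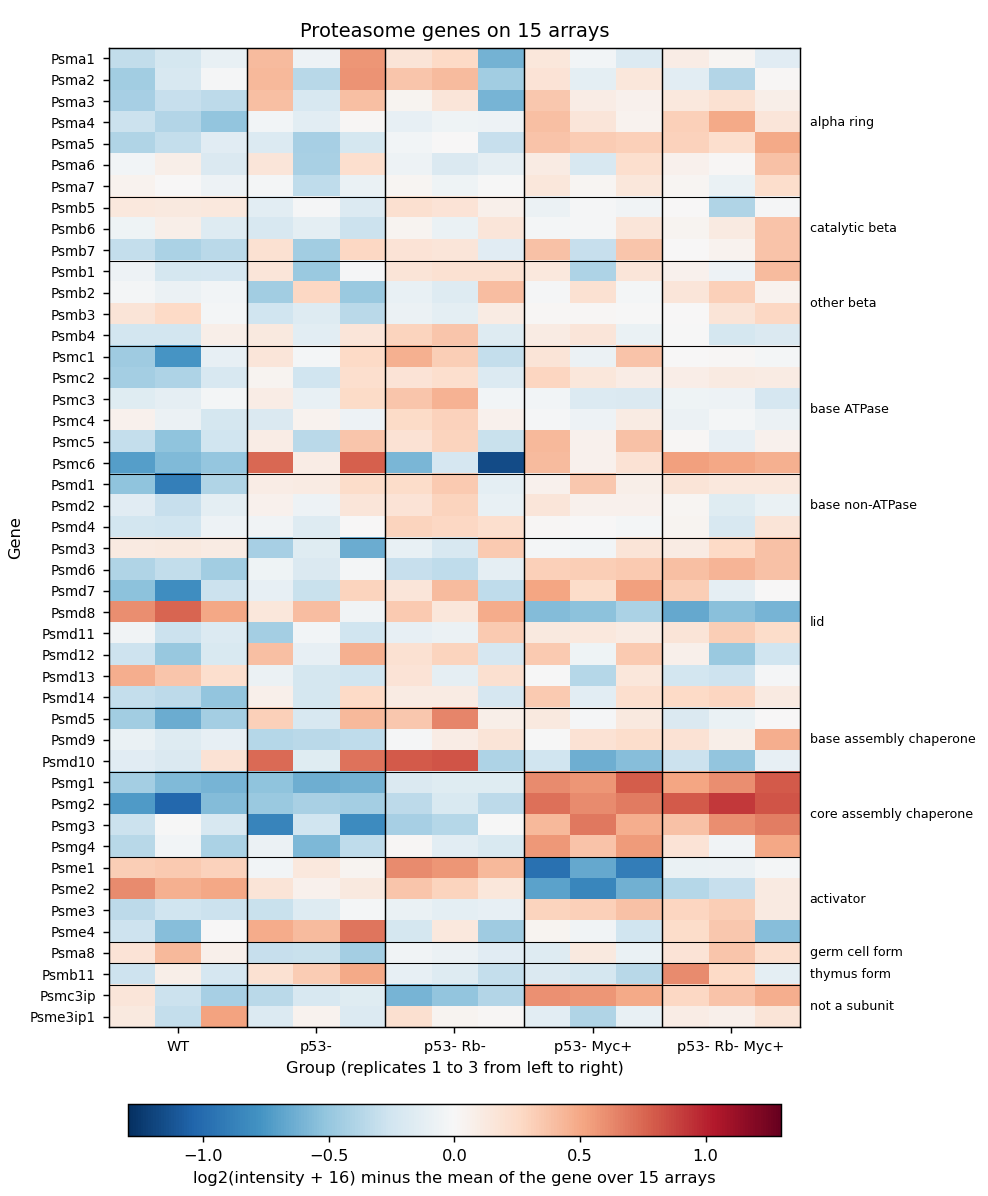
Heat map of the 46 genes (rows, ordered by role) on the 15 arrays (columns, replicates 1 to 3 from left to right within each group); colour is log2(intensity + 16) minus the mean of the gene over all arrays. The rows of Psmg1, Psmg2 and Psmg3 are red on the 6 arrays labelled Myc+, those of Psmd8, Psme1 and Psme2 are mostly blue there, and the row of Psmc6 is blue in WT and p53- Rb- arrays and red in the other groups.

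Changes below are log2 fold changes ± SE of log2(intensity + 16) from 1 limma fit to all 15 arrays. A gene is said to rise or fall where its adjusted p (Benjamini-Hochberg, all 19938 genes) was under 0.05. Of the 46 proteasome genes, 8 rose and 5 fell from WT to p53- (13 in all), where 29.0% of all genes passed (19.3% rose and 9.72% fell). Adding the Rb- label to p53- cells gave 3 that rose and 3 that fell, against 19.8% of all genes (9.36% and 10.4%). Adding the Myc+ label to p53- cells gave 10 that rose and 6 that fell, against 33.3% of all genes (13.1% and 20.2%). Adding it to p53- Rb- cells gave 8 that rose and 4 that fell, against 36.3% of all genes (17.6% and 18.7%). Adding the Rb- label to p53- Myc+ cells gave 1 that rose and 0 that fell, against 4.69% of all genes (3.29% and 1.40%). Relative to WT, p53- Rb- cells had 6 that rose and 0 that fell, against 14.6% of all genes (10.8% and 3.75%). Each of these shares lay near or below that of all genes, so the number of proteasome genes that passed does not set them apart. Among genes at or above the median level, where nearly all proteasome genes lie, the shares that passed were 38.1%, 27.0%, 47.1%, 50.0%, 6.51% and 21.3% in the same order. Each of these was above the share of the proteasome genes. In that order too, compared groups had no overlap of arrays for 23, 15, 22, 20, 11 and 19 of the 46 genes, against 40.3%, 40.0%, 42.6%, 51.2%, 20.5% and 31.3% of all genes.

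Without p53- replicate 2 and p53- Rb- replicate 3, 15 rose and 7 fell from WT to p53-, 1 rose and 1 fell with the Rb- label in p53- cells, and 10 rose and 0 fell from WT to p53- Rb-. With the Myc+ label 11 then rose and 8 fell in p53- cells, and 6 rose and 8 fell in p53- Rb- cells, where fewer had fallen than risen with all arrays. From p53- Myc+ to p53- Rb- Myc+ 2 then rose and 0 fell. The direction of the counts depended on the scale of the arrays. With each array centred on its median, 4 rose and 7 fell from WT to p53-, where risers among all genes went from 66.5% to 52.5% of calls. In the same setting 17 rose and 4 fell with the Myc+ label in p53- cells, where they went from 39.2% to 59.2%. Centring did not move the split of all genes by more than 10 percentage points in p53- Rb- cells, where 11 rose and 2 fell with the Myc+ label. From p53- Myc+ to p53- Rb- Myc+ risers among all genes went from 70.2% to 55.8% of calls with 1 proteasome gene rising in either setting, and with quantile normalization from WT to p53- Rb- from 74.2% to 58.8%, with 2 rising and 0 falling. In the difference of the Rb comparisons, described for Psmc6 and Psmb11, risers among all genes went from 64.4% to 45.1% of calls with centring, and 2 proteasome genes rose in either setting. The median change of all genes from p53- to p53- Myc+ was -0.09 as deposited and 0.11 with centring.

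**Figure D2:**
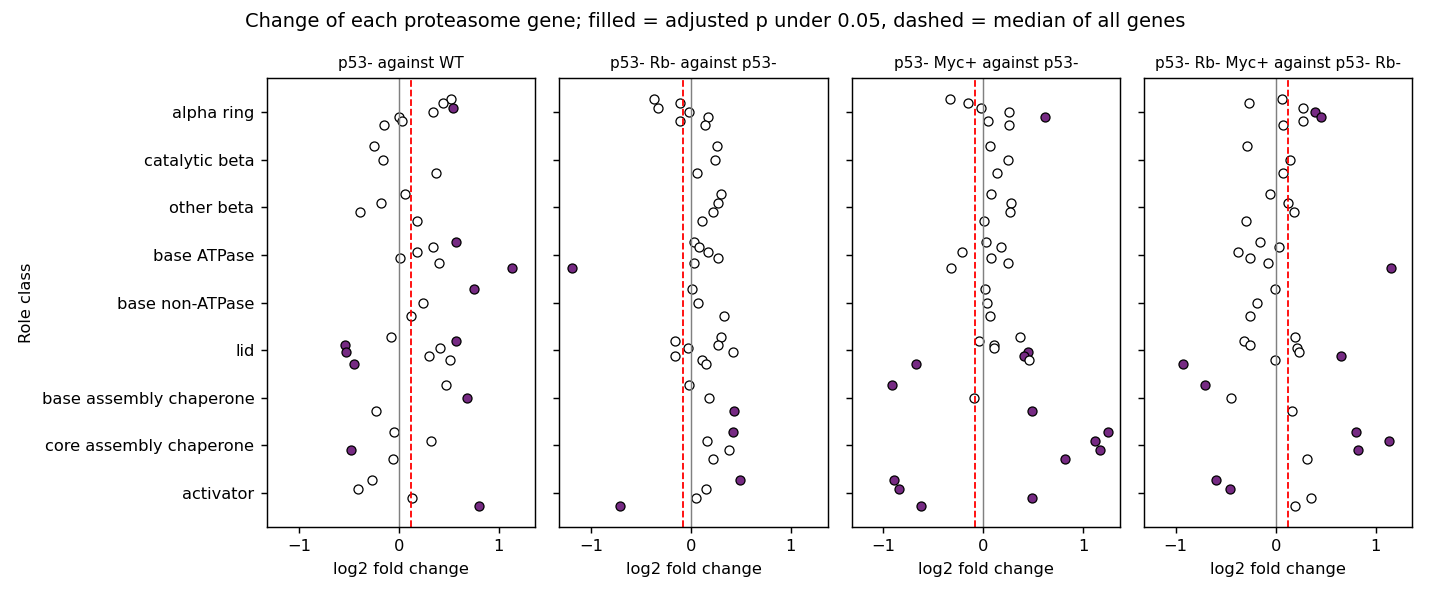
Log2 fold change of each gene except Psma8, Psmb11, Psmc3ip and Psme3ip1 (points) by role (rows). The comparisons shown are WT to p53-, the Rb- label in p53- cells, and the Myc+ label in p53- and in p53- Rb- cells. Filled points passed at an adjusted p under 0.05 and open points did not. The solid vertical line marks no change and the dashed line the median of all genes. Filled points of the core assembly chaperones lie on the right in both comparisons of the Myc+ label, whereas no filled point belongs to the catalytic beta subunits.

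The core assembly chaperones carried the clearest change with the Myc+ label, as all 4 rose in p53- cells and 3 of 4 rose in p53- Rb- cells. PSMG1 and PSMG2 form a pair on which the alpha ring is built. Psmg1 had intensities of 330.0, 298.8 and 293.0 on WT arrays, 310.8, 286.3 and 291.5 on p53- arrays, 395.6, 404.5 and 404.2 on p53- Rb- arrays, 701.2, 683.5 and 794.2 on p53- Myc+ arrays, and 653.1, 698.4 and 797.4 on p53- Rb- Myc+ arrays. All 6 arrays labelled Myc+ lay above the 9 others. With the Myc+ label Psmg1 rose by 1.25 ± 0.15 in p53- cells (limma, adjusted p = 3.66e-07) and by 0.81 ± 0.15 in p53- Rb- cells (adjusted p = 0.000126). Its partner Psmg2 had intensities of 200.5, 162.5 and 228.1 on WT arrays, 243.1, 253.6 and 249.5 on p53- arrays, 270.1, 300.2 and 270.4 on p53- Rb- arrays, 579.3, 536.7 and 563.3 on p53- Myc+ arrays, and 613.7, 666.7 and 621.4 on p53- Rb- Myc+ arrays. Psmg2 rose by 1.12 ± 0.15 in p53- cells (adjusted p = 2.72e-06) and by 1.13 ± 0.15 in p53- Rb- cells (adjusted p = 2.35e-06). The lowest array labelled Myc+ therefore stood well above the highest of the others for both partners.

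PSMG3 and PSMG4 form the second pair, which acts on the growing alpha ring. Psmg3 had intensities of 249.5, 305.6 and 263.9 on WT arrays, 161.7, 254.2 and 167.3 on p53- arrays, 224.1, 233.1 and 306.6 on p53- Rb- arrays, 417.3, 502.6 and 431.7 on p53- Myc+ arrays, and 405.2, 476.2 and 497.3 on p53- Rb- Myc+ arrays. With the Myc+ label it rose by 1.17 ± 0.18 in p53- cells (adjusted p = 1.75e-05) and by 0.82 ± 0.18 in p53- Rb- cells (adjusted p = 0.000946), and no array labelled Myc+ overlapped the others. Psmg4 had intensities of 161.5, 207.1 and 155.4 on WT arrays, 201.5, 136.9 and 165.9 on p53- arrays, 321.2, 278.6 and 320.2 on p53- Myc+ arrays, 215.7, 192.5 and 182.8 on p53- Rb- arrays, and 243.1, 204.7 and 307.0 on p53- Rb- Myc+ arrays. Psmg4 rose by 0.82 ± 0.18 in p53- cells (adjusted p = 0.000798). Among p53- Rb- cells its arrays overlapped, and it changed by 0.31 ± 0.18 (adjusted p = 0.176). The difference between its changes with the Myc+ label in these settings, which equals the difference of both Rb comparisons, was -0.51 ± 0.25 and did not pass (adjusted p = 0.189). The 7 passing calls of Psmg1 to Psmg4 with the Myc+ label held in all 25 alternatives run for each comparison. Of the other changes of these genes, the rise of Psmg1 from p53- to p53- Rb- (0.42 ± 0.15, adjusted p = 0.0465) ended in 13 of 25 alternatives, 10 of which left out a single array (any p53- or p53- Rb- array, or 4 of other groups), with an adjusted p of 0.134 without p53- replicate 3. The fall of Psmg3 from WT to p53- (-0.48 ± 0.18, adjusted p = 0.04996) ended in 14 of 25, among them those without 1 WT array, whichever it was, without p53- replicate 1 (0.196) or 3, or without 7 arrays of other groups left out singly. So did the rise of Psmg2 from WT to p53- Rb- (0.49 ± 0.15, adjusted p = 0.033) in 8 of 25, among them those without WT replicate 1 or 2 (0.17) or any p53- Rb- array.

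**Figure D3:**
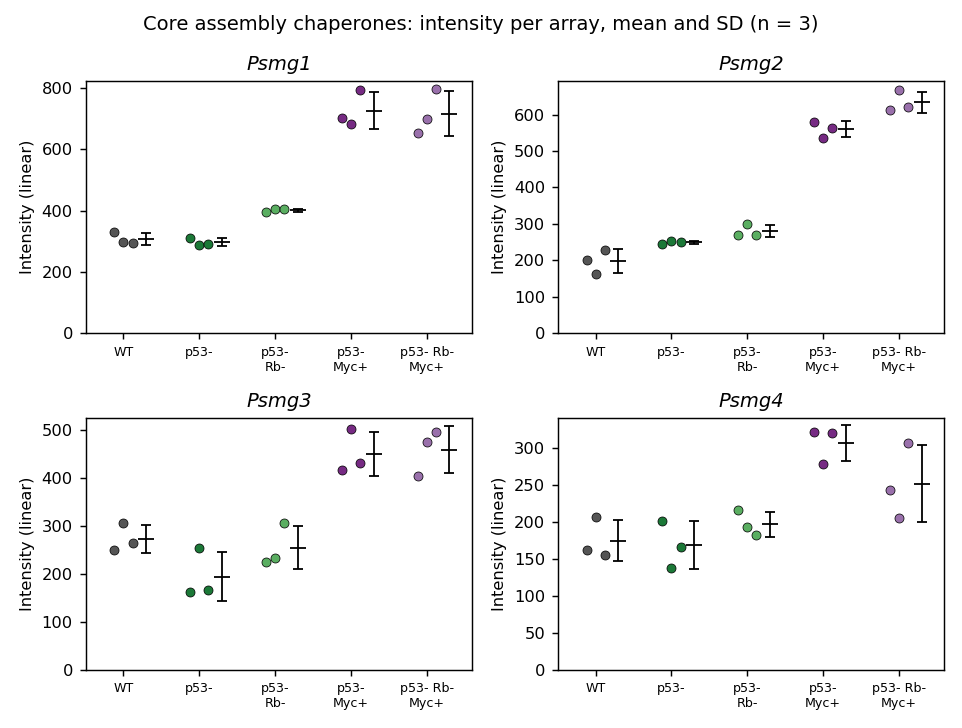
Intensity (linear scale, from 0) of Psmg1 to Psmg4 on each array (points) by group, with the mean and SD of 3 arrays beside them. For Psmg1, Psmg2 and Psmg3 the arrays labelled Myc+ all lie above the others, and for Psmg4 the p53- Rb- Myc+ arrays overlap the p53- Rb- arrays.

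The chaperones of the base did not move as a block. Psmd10, which encodes gankyrin, a chaperone also known as an oncoprotein that binds Rb, had intensities of 352.4, 182.9 and 344.1 on p53- arrays, 184.5, 178.8 and 236.7 on WT arrays, 168.9, 126.4 and 134.6 on p53- Myc+ arrays, 369.0, 373.2 and 151.4 on p53- Rb- arrays, and 166.6, 138.8 and 189.9 on p53- Rb- Myc+ arrays. It fell by 0.91 ± 0.27 (adjusted p = 0.0104) in p53- cells, a call that ended without p53- replicate 1 (0.0637) or p53- replicate 3 (0.0597). It fell by 0.70 ± 0.27 (adjusted p = 0.0441) in p53- Rb- cells, where p53- Rb- replicate 3 lay among the arrays labelled Myc+. Without that array and p53- replicate 2 the estimate was a fall of 1.106. This larger fall is no support for the call, because the arrays were left out after values had been seen and p53- Rb- replicate 3 went against it. The call with all arrays ended in 8 of 25 alternatives, among them those without p53- Rb- replicate 1 (0.207), p53- Rb- replicate 2 (0.203), p53- Rb- Myc+ replicate 1 (0.0862) or p53- Rb- Myc+ replicate 2 (0.156). Psmd9 rose instead, from 247.5, 251.2 and 254.1 on p53- arrays to 323.1, 369.9 and 381.8 on p53- Myc+ arrays and 321.1, 347.3 and 365.6 on p53- Rb- arrays. Its other intensities were 304.8, 286.0 and 299.0 on WT arrays and 369.7, 342.8 and 454.2 on p53- Rb- Myc+ arrays, so the p53- arrays were the lowest. Its changes were 0.48 ± 0.15 with the Myc+ label (adjusted p = 0.0152, and 0.0583 without p53- Myc+ replicate 3) and 0.43 ± 0.15 with the Rb- label (adjusted p = 0.0467), of which the second ended in 12 of 25 alternatives, among them those without any 1 p53- or p53- Rb- array (0.149 for p53- Rb- replicate 3) or 3 of other groups left out singly. Psmd5 was lowest in WT, at 91.9, 78.6 and 92.4, against 166.7, 111.8 and 182.0 on p53- arrays and 173.0, 212.8 and 139.6 on p53- Rb- arrays. The arrays labelled Myc+ also lay above WT, at 145.3, 130.2 and 145.7 on p53- Myc+ arrays and 113.4, 122.8 and 132.2 on p53- Rb- Myc+ arrays. Psmd5 rose from WT by 0.69 ± 0.18 to p53- (adjusted p = 0.00647, and 0.0537 without p53- replicate 3) and by 0.87 ± 0.18 to p53- Rb- (adjusted p = 0.00238), and the second call held in all 25 alternatives.

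The activators split with the Myc+ label: PA28 alpha and beta fell and PA28 gamma rose. PA28 alpha/beta is known for shaping peptides for antigen presentation and is induced by interferon gamma, whereas PA28 gamma is nuclear and acts without ubiquitin. Psme1 had intensities of 755.7, 766.4 and 746.2 on WT arrays, 588.6, 665.1 and 619.1 on p53- arrays, 932.0, 902.1 and 810.8 on p53- Rb- arrays, 299.7, 374.6 and 315.7 on p53- Myc+ arrays, and 565.5, 568.3 and 592.4 on p53- Rb- Myc+ arrays. No 2 groups of arrays overlapped, except that the ranges of p53- and p53- Rb- Myc+ arrays met between 588.6 and 592.4. Psme1 fell by 0.89 ± 0.15 (adjusted p = 3.83e-05) and by 0.60 ± 0.15 (adjusted p = 0.00241) with the Myc+ label in p53- and in p53- Rb- cells, and both calls held in all 25 alternatives. With the Rb- label it rose by 0.49 ± 0.15 in cells without Myc+ (adjusted p = 0.0224) and by 0.78 ± 0.15 in cells labelled Myc+ (adjusted p = 0.00141). The latter made it the only one of the 46 genes to pass from p53- Myc+ to p53- Rb- Myc+, and it held in all 26 alternatives of that comparison. The former ended without p53- replicate 1 (0.0876), p53- replicate 3 (0.0755), p53- Rb- replicate 1 (0.0888) or p53- Rb- replicate 2 (0.0605). The 2 changes with the Rb- label differed by 0.29 ± 0.21, which did not pass (adjusted p = 0.369).

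Psme2, the partner subunit, followed the Myc+ label in the same direction. Its intensities were 879.8, 792.5 and 814.0 on WT arrays, 641.5, 595.6 and 627.1 on p53- arrays, 738.8, 701.4 and 636.0 on p53- Rb- arrays, 347.2, 309.0 and 363.5 on p53- Myc+ arrays, and 437.3, 460.8 and 619.8 on p53- Rb- Myc+ arrays. It fell by 0.84 ± 0.16 in p53- cells (adjusted p = 0.000183), in all 25 alternatives. In p53- Rb- cells it fell by 0.45 ± 0.16 (adjusted p = 0.028), which ended in 6 of 25 alternatives, among them those without p53- Rb- replicate 1 (0.104), p53- Rb- replicate 2 (0.0695), p53- Rb- Myc+ replicate 1 (0.135) or p53- Rb- Myc+ replicate 2 (0.107). From p53- Myc+ to p53- Rb- Myc+ the arrays did not overlap, and the change of 0.54 ± 0.16 missed the threshold (adjusted p = 0.0526). Psme3 had intensities of 559.2, 592.9 and 584.6 on WT arrays, 583.2, 633.1 and 703.3 on p53- arrays, 879.4, 886.6 and 934.0 on p53- Myc+ arrays, 670.8, 651.0 and 661.1 on p53- Rb- arrays, and 872.3, 896.0 and 778.4 on p53- Rb- Myc+ arrays. The arrays labelled Myc+ all lay above the others. It rose by 0.49 ± 0.14 in p53- cells (adjusted p = 0.011, and 0.0582 without p53- replicate 1) and changed by 0.35 ± 0.14 in p53- Rb- cells (adjusted p = 0.0608).

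Psme4 encodes PA200, a large nuclear cap known for histone degradation, and was highest in p53- arrays. Its intensities were 238.9, 194.4 and 293.8 on WT arrays, 414.3, 395.1 and 484.9 on p53- arrays, 247.2, 322.3 and 208.4 on p53- Rb- arrays, 299.3, 282.3 and 242.5 on p53- Myc+ arrays, and 347.3, 378.0 and 194.5 on p53- Rb- Myc+ arrays. All 3 p53- arrays lay above the 12 others. Psme4 rose by 0.81 ± 0.21 from WT (adjusted p = 0.00769), in all 25 alternatives. From p53- it fell by 0.72 ± 0.21 with the Rb- label (adjusted p = 0.0224) and by 0.62 ± 0.21 with the Myc+ label (adjusted p = 0.0289), and these comparisons share the p53- arrays. Both of the latter calls ended in 6 of 25 alternatives, with adjusted p up to 0.13 (without p53- Rb- replicate 3) and 0.12 (with each array centred on its median). They also ended without p53- replicate 1 (0.0536 and 0.0558) or p53- replicate 3 (0.107 and 0.114), and the first ended without p53- Rb- replicate 1 (0.0665) and the second without p53- Myc+ replicate 2 (0.0501) or p53- Myc+ replicate 3 (0.102).

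**Figure D4:**
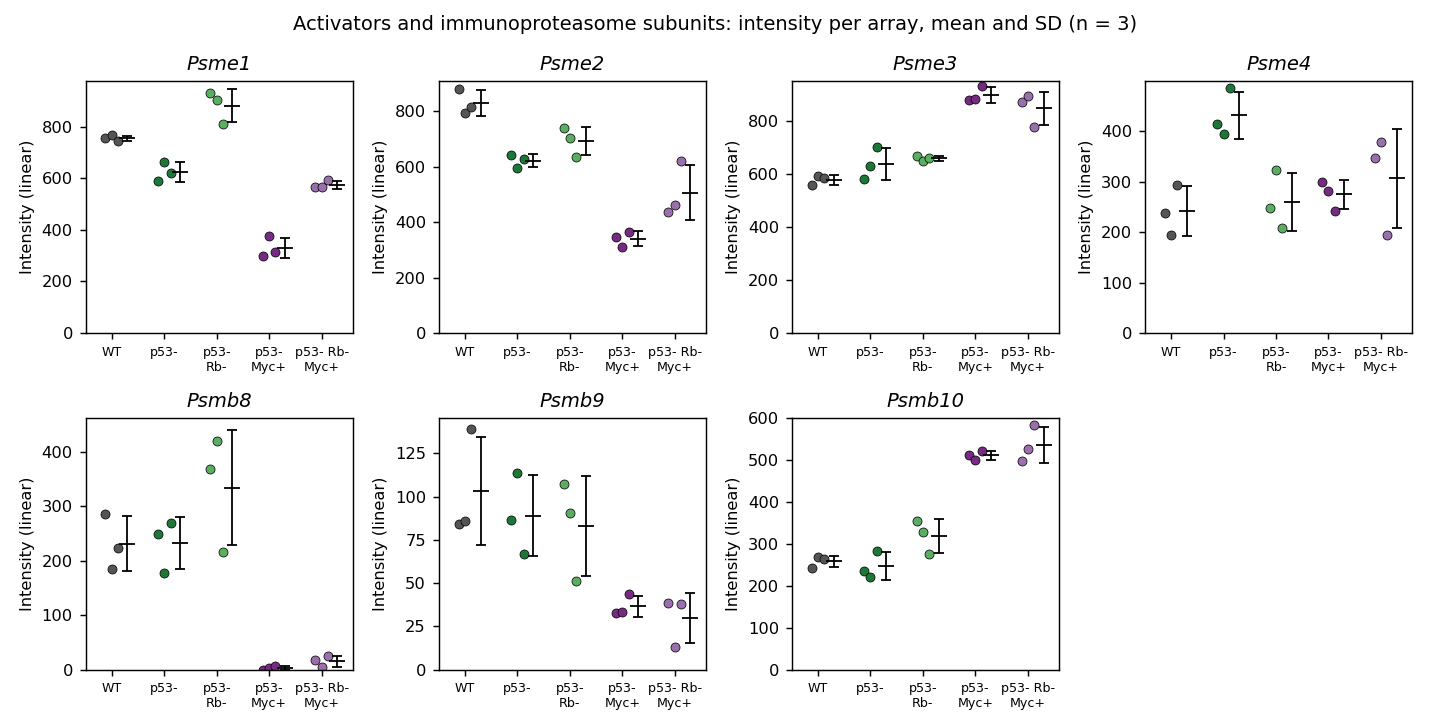
Intensity (linear scale, from 0) of the activator genes Psme1 to Psme4 and of Psmb8, Psmb9 and Psmb10 on each array (points) by group, with the mean and SD of 3 arrays. Psme1 and Psme2 are lowest in p53- Myc+ arrays, Psme3 is highest on the arrays labelled Myc+, and Psme4 is highest in p53- arrays.

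The immunoproteasome subunits, which interferon gamma induces together with PA28 alpha/beta and which replace the standard catalytic subunits, did not all move with the activators. Psmb8 had intensities of 285.3, 184.8 and 223.7 on WT arrays, 248.3, 177.9 and 269.2 on p53- arrays, 368.8, 418.8 and 215.3 on p53- Rb- arrays, 0.04, 2.82 and 7.62 on p53- Myc+ arrays, and 17.1, 4.81 and 24.8 on p53- Rb- Myc+ arrays. It fell with the Myc+ label in p53- cells (adjusted p = 6.08e-11) and in p53- Rb- cells (adjusted p = 1.54e-10), and no size is given because the levels with that label lie near or below the added constant of 16. Psmb9 fell by 0.97 ± 0.25 in p53- cells (adjusted p = 0.00394) and fell by 1.12 ± 0.25 in p53- Rb- cells (adjusted p = 0.00114). Psmb10 instead rose, by 1.01 ± 0.15 in p53- cells (adjusted p = 1.42e-05) and by 0.72 ± 0.15 in p53- Rb- cells (adjusted p = 0.000681). Leukocytes include cells with high immunoproteasome levels. The summed intensity of 6 leukocyte markers was 2021 to 2405 on WT arrays, 544.4 to 689.0 on p53- arrays and 712.5 to 803.5 on p53- Rb- arrays. On p53- Myc+ arrays it was 232.3 to 235.5 and on p53- Rb- Myc+ arrays 297.4 to 308.0. Cd14 was the largest single part of that sum on WT, p53- and p53- Rb- arrays. From WT to p53- 1 of the 6 rose and 3 fell, and from WT to p53- Rb- 0 rose and 3 fell. With the Myc+ label 4 of the 6 fell and 0 rose in p53- cells, and 3 fell and Cd3e rose in p53- Rb- cells. The means of Cd3e were 79.3 on p53- Rb- arrays and 121.4 on p53- Rb- Myc+ arrays. The part of leukocytes in the falls of Psme1, Psme2, Psmb8 and Psmb9, or in the changes from WT, was not tested.

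The standard catalytic subunits gave 0 limma calls in the 21 tests made of them (3 genes in 6 comparisons and the difference of the Rb comparisons), and 0 had an unadjusted p under 0.05. Psmb5, the chymotrypsin-like subunit, had intensities of 1237, 1227 and 1242 on WT arrays, 1020, 1116 and 992.8 on p53- arrays, 1305, 1277 and 1180 on p53- Rb- arrays, 1068, 1114 and 1092 on p53- Myc+ arrays, and 1133, 855.7 and 1113 on p53- Rb- Myc+ arrays. Psmb6, the caspase-like subunit, had intensities of 1211, 1335 and 1123 on WT arrays, 1093, 1150 and 1037 on p53- arrays, 1295, 1185 and 1410 on p53- Rb- arrays, 1243, 1245 and 1410 on p53- Myc+ arrays, and 1293, 1373 and 1636 on p53- Rb- Myc+ arrays. Psmb7, the trypsin-like subunit, had intensities of 691.3, 645.5 and 671.6 on WT arrays, 994.1, 628.7 and 1047 on p53- arrays, 978.8, 968.2 and 776.9 on p53- Rb- arrays, 1129, 699.4 and 1114 on p53- Myc+ arrays, and 869.1, 890.9 and 1122 on p53- Rb- Myc+ arrays. For Psmb7 the range from lowest to highest array within the p53- and p53- Myc+ groups was wider than any step between group means. With the Myc+ label in p53- cells, their changes were 0.07 (95% interval -0.25 to 0.38) for Psmb5, 0.25 (-0.07 to 0.56) for Psmb6 and 0.14 (-0.29 to 0.57) for Psmb7. In p53- Rb- cells these were -0.29 (-0.60 to 0.03), 0.14 (-0.18 to 0.46) and 0.08 (-0.35 to 0.50). A rise of the size seen for Psmg1, Psmg2 or Psmg3 in the same comparison lay outside each of these intervals. Without p53- replicate 2, Psmb7 passed from WT to p53- (adjusted p = 0.0324) and its change with the Myc+ label was -0.09. The remaining beta subunits of the core, Psmb1 to Psmb4, which have no active site, gave 0 limma calls in 28 tests (1 at an unadjusted p under 0.05). Over these 4 genes the interval ends ran from -0.35 to 0.68 with the Myc+ label in p53- cells and from -0.66 to 0.53 in p53- Rb- cells.

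In the alpha ring, which gates entry to the core, 1 of 7 genes rose with the Myc+ label in p53- cells and 2 of 7 in p53- Rb- cells. Psma5 had intensities of 689.4, 726.2 and 817.4 on WT arrays, 799.0, 665.7 and 769.6 on p53- arrays, 1174, 1146 and 1130 on p53- Myc+ arrays, 884.3, 906.6 and 733.5 on p53- Rb- arrays, and 1118, 1061 and 1285 on p53- Rb- Myc+ arrays, with the arrays labelled Myc+ above the others. It rose by 0.62 ± 0.15 (adjusted p = 0.00284, in all 25 alternatives) and by 0.45 ± 0.15 (adjusted p = 0.0251), of which the second ended in 5 of 25, among them those without p53- Rb- replicate 3 (0.114), p53- Rb- Myc+ replicate 1 (0.0501) or p53- Rb- Myc+ replicate 3 (0.0971). Psma5 was read by 2 probe sets, and the dimmer one had means of 654.4 ± 88.2 in p53- and 805.7 ± 116.8 in p53- Myc+ arrays. Its means were 641.9 ± 105.0 in p53- Rb- and 806.7 ± 8.3 in p53- Rb- Myc+ arrays. With the mean of both probe sets the call in p53- Rb- cells also ended (adjusted p = 0.0568). Psma4 rose by 0.40 ± 0.15 in p53- Rb- cells (adjusted p = 0.048), which did not hold in 12 of 25 alternatives, among them those without any 1 p53- Rb- array, p53- Rb- Myc+ replicate 1 or 2 (0.197), or 4 arrays of other groups left out singly. Psma3 rose by 0.55 ± 0.20 from WT to p53- (adjusted p = 0.0395) and lost the call in 8 of 25, among them those without any 1 WT array or p53- replicate 1 or 3 (0.171). Psma1, Psma2, Psma6 and Psma7 passed in none of the comparisons. Psma8 was dim, at 31.4, 40.1 and 27.8 on WT arrays, 18.0, 18.1 and 14.7 on p53- arrays, 24.4, 23.5 and 21.7 on p53- Rb- arrays, 21.3, 29.5 and 23.3 on p53- Myc+ arrays, and 31.2, 37.7 and 32.7 on p53- Rb- Myc+ arrays. It fell by 0.57 ± 0.15 from WT to p53- (adjusted p = 0.00761), in all 24 alternatives.

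Among the 6 ATPases of the base, which sit as 1 ring and are needed in equal numbers, Psmc6 moved apart from the others. Its intensities were 211.0, 234.9 and 248.5 on WT arrays, 609.2, 384.5 and 626.0 on p53- arrays, 231.8, 306.5 and 151.3 on p53- Rb- arrays, 480.9, 373.4 and 408.5 on p53- Myc+ arrays, and 525.0, 512.8 and 497.4 on p53- Rb- Myc+ arrays. It was thus low in WT and p53- Rb- arrays and higher in the other 3 groups, whose arrays lay above those of both. Psmc6 rose by 1.14 ± 0.21 from WT to p53- (adjusted p = 0.000408), fell by 1.196 ± 0.21 with the Rb- label in p53- cells (adjusted p = 0.000392), and rose by 1.15 ± 0.21 with the Myc+ label in p53- Rb- cells (adjusted p = 0.000135). Its change with the Rb- label was 0.28 ± 0.21 in cells labelled Myc+ (adjusted p = 0.607), and this differed from the change in cells without Myc+ by 1.48 ± 0.30 (adjusted p = 0.00199). These 4 calls held in all 25 alternatives, including the 1 without p53- replicate 2 and p53- Rb- replicate 3. Of the other 5 ATPases, Psmc2, Psmc3, Psmc4 and Psmc5 passed in none of the comparisons. Psmc1 rose from WT by 0.57 ± 0.20 to p53- (adjusted p = 0.035) and by 0.60 ± 0.20 to p53- Rb- (adjusted p = 0.0467), which ended in 8 and 15 of 25 alternatives, among them those without WT replicate 1 or 2 (0.166 and 0.224 for the latter), without p53- replicate 1 or 3, and, for the second, without p53- Rb- replicate 1 or 2 or 4 more arrays left out singly. Psmc1 was read by 2 probe sets, and with their mean the calls also ended (0.101 and 0.152).

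**Figure D5:**
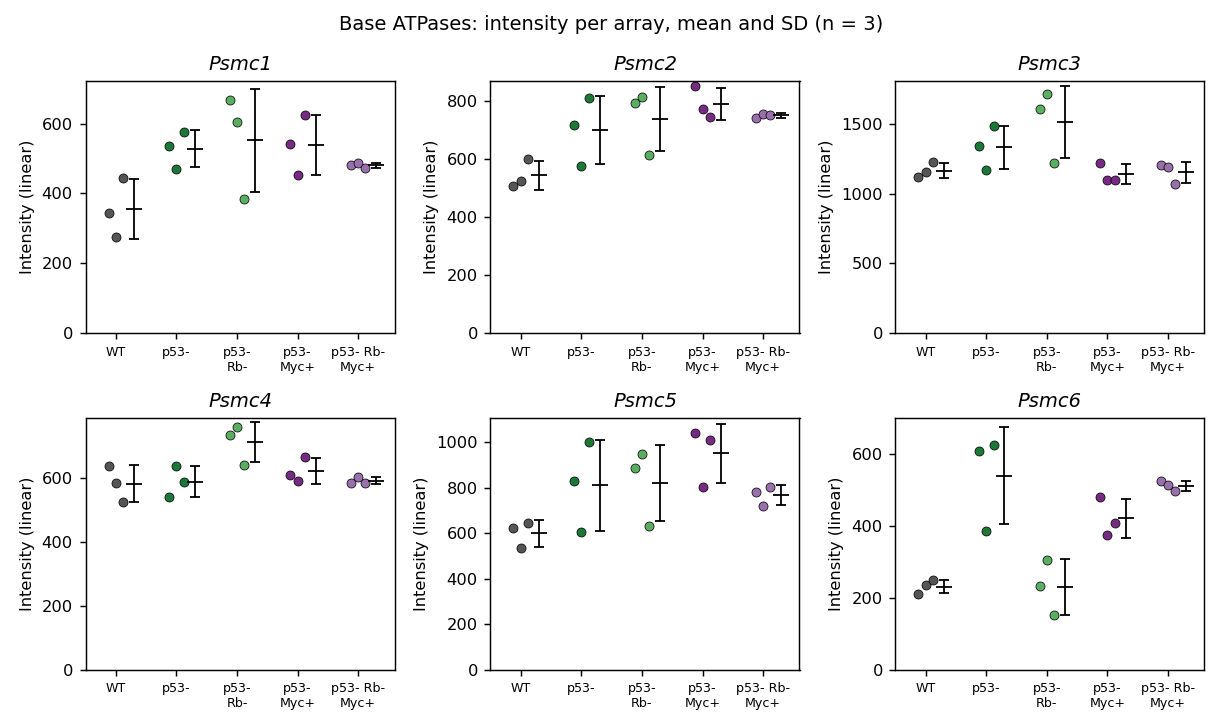
Intensity (linear scale, from 0) of the 6 ATPase genes Psmc1 to Psmc6 on each array (points) by group, with the mean and SD of 3 arrays. Psmc6 is low in WT (211.0 to 248.5) and p53- Rb- arrays (151.3 to 306.5) and at 373.4 or more in the other groups, a pattern that the other 5 genes do not show.

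Of the other subunits of the base, Psmd1, a large scaffold that binds ubiquitin receptors, was lower in WT than in all other arrays. Its intensities were 679.6, 522.4 and 743.9 on WT arrays, 1051, 1058 and 1161 on p53- arrays, 1164, 1249 and 897.6 on p53- Rb- arrays, 1024, 1256 and 1040 on p53- Myc+ arrays, and 1105, 1084 and 1086 on p53- Rb- Myc+ arrays. Psmd1 rose from WT by 0.75 ± 0.17 to p53- (adjusted p = 0.00222) and by 0.75 ± 0.17 to p53- Rb- (adjusted p = 0.00453), and both calls held in all 25 alternatives. The ubiquitin receptor gene Psmd4 rose from WT to p53- Rb- by 0.45 ± 0.15 (adjusted p = 0.0442), which ended in 14 of 25 alternatives, among them those without WT replicate 1 or 2 (0.131), any 1 p53- Rb- array, or 4 arrays of other groups left out singly. Psmd2 passed in none of the comparisons.

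In the lid, Psmd8 fell and Psmd6 rose with the Myc+ label, so the 8 lid genes did not share a direction. Psmd8 had intensities of 1744, 1942 and 1625 on WT arrays, 1272, 1515 and 1110 on p53- arrays, 1451, 1266 and 1602 on p53- Rb- arrays, 771.2, 786.2 and 857.0 on p53- Myc+ arrays, and 713.2, 780.9 and 745.5 on p53- Rb- Myc+ arrays. All arrays labelled Myc+ lay below the others. Psmd8 fell by 0.67 ± 0.16 (adjusted p = 0.00189) and by 0.93 ± 0.16 (adjusted p = 6.18e-05) in p53- and in p53- Rb- cells, in all 25 alternatives of each. Psmd6 had intensities of 499.7, 525.6 and 478.0 on WT arrays, 635.9, 579.4 and 650.2 on p53- arrays, 821.8, 829.8 and 840.8 on p53- Myc+ arrays, 534.2, 524.5 and 609.1 on p53- Rb- arrays, and 871.3, 906.2 and 869.2 on p53- Rb- Myc+ arrays. It rose by 0.65 ± 0.14 in p53- Rb- cells (adjusted p = 0.000841, in all 25 alternatives) and by 0.41 ± 0.14 in p53- cells (adjusted p = 0.0291). The latter ended in 7 of 25 alternatives, among them those without p53- replicate 1 (0.0569), p53- replicate 2 (0.0798) or p53- Myc+ replicate 1 (0.0592), 2 (0.055) or 3 (0.0693). The scaffold gene Psmd3 had intensities of 795.6, 802.2 and 791.3 on WT arrays, 542.0, 657.8 and 462.3 on p53- arrays, 685.7, 632.5 and 936.5 on p53- Rb- arrays, 720.9, 717.1 and 829.2 on p53- Myc+ arrays, and 790.5, 879.8 and 958.3 on p53- Rb- Myc+ arrays. It fell by 0.53 ± 0.17 from WT (adjusted p = 0.0255) and rose by 0.45 ± 0.17 with the Myc+ label (adjusted p = 0.0491). The first call ended without WT replicate 1 or 2 or p53- replicate 1 or 3 (up to 0.151), and the second in 14 of 25 alternatives, among them those without p53- replicate 1 or 3 (0.229), any 1 p53- Myc+ array or 6 arrays of other groups left out singly.

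Psmd13 fell from 658.8, 608.8 and 547.6 on WT arrays to 443.8, 399.1 and 390.2 on p53- arrays, by 0.54 ± 0.17 (adjusted p = 0.0186), a call that ended without WT replicate 1 (0.0692) or p53- replicate 3 (0.0748). Its other arrays lay between or overlapped these, at 531.5, 430.2 and 545.8 on p53- Rb- arrays, 466.8, 359.3 and 520.8 on p53- Myc+ arrays, and 396.8, 385.7 and 465.7 on p53- Rb- Myc+ arrays. Psmd8 fell there by 0.45 ± 0.16 (adjusted p = 0.0365), while Psmd12 rose by 0.57 ± 0.20 (adjusted p = 0.0319). Both of these calls ended without WT replicate 1 or 2 or p53- replicate 1 or 3 (up to 0.188 and 0.153, without the last). In the fit to all arrays, lid genes thus passed in both directions from WT to p53-. Each of these calls, and that of Psmd3, ended when WT replicate 1 or p53- replicate 3 was left out, so the split is uncertain. Psmd7 had intensities of 424.3, 346.7 and 508.8 on WT arrays and 695.1, 830.7 and 490.0 on p53- Rb- arrays, which overlapped. On the remaining arrays they were 577.4, 505.7 and 764.6 on p53- arrays, 889.9, 734.0 and 904.2 on p53- Myc+ arrays, and 778.4, 570.0 and 623.4 on p53- Rb- Myc+ arrays. From WT to p53- Rb- it rose by 0.62 ± 0.21 (adjusted p = 0.0446), which did not hold in 11 of 25 alternatives, among them those without WT replicate 1 or 2, p53- Rb- replicate 1 or 2 (0.231), or 3 arrays of other groups left out singly. Psmd11 and Psmd14, of which PSMD14 is the enzyme that removes ubiquitin chains, passed in none of the comparisons.

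Psmb11 was low throughout, at 17.8, 26.7 and 18.9 on WT arrays, 30.7, 35.1 and 41.3 on p53- arrays, 21.6, 20.2 and 16.7 on p53- Rb- arrays, 19.7, 18.8 and 15.7 on p53- Myc+ arrays, and 46.4, 32.6 and 21.3 on p53- Rb- Myc+ arrays. Many of these levels lie near the added constant of 16, so the sizes of its changes are uncertain. From p53- it fell by 0.54 ± 0.18 with the Rb- label (adjusted p = 0.036) and by 0.60 ± 0.18 with the Myc+ label (adjusted p = 0.0111), after a rise of 0.48 ± 0.18 from WT (adjusted p = 0.0467). These calls ended in 9, 3 and 15 of 24 alternatives, in each case also without p53- replicate 3 (0.156, 0.0587 and 0.179). The first ended as well without any 1 other p53- or p53- Rb- array, and the last without WT replicate 1 or 3, p53- replicate 1 or 2, or 4 arrays of other groups left out singly. Between cells labelled Myc+ and other cells, its Rb- changes differed by 1.05 ± 0.25 (adjusted p = 0.00736). With Psmc6 it was 1 of 2 genes of the 46 to pass in this difference, in which 13.6% of all genes passed (8.78% rose and 4.86% fell). Psmc3ip, the recombination cofactor, had intensities of 198.4, 142.2 and 126.8 on WT arrays, 134.8, 149.8 and 156.3 on p53- arrays, 110.6, 118.6 and 131.5 on p53- Rb- arrays, 273.1, 270.4 and 254.7 on p53- Myc+ arrays, and 214.9, 232.1 and 250 on p53- Rb- Myc+ arrays. It rose by 0.79 ± 0.16 (adjusted p = 0.00048) and by 0.87 ± 0.16 (adjusted p = 0.000184) with the Myc+ label, in all 25 alternatives of each, and Psme3ip1 passed in none of the comparisons.

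The comparisons of the Myc+ label in p53- and in p53- Rb- cells share no arrays, and their calls are set beside each other here. Both use the same estimate of spread for each gene from the fit to all arrays, so the calls are not independent. Of the 16 genes that passed in the first and the 12 that passed in the second, 10 passed in both, all in the same direction: Psma5, Psmc3ip, Psmd6, Psmg1, Psmg2 and Psmg3 rose and Psmd8, Psmd10, Psme1 and Psme2 fell. They were 62.5% of the first set and 83.3% of the second. Over all genes, those that passed in both with 1 direction were 58.8% of the first set and 53.9% of the second. The comparisons of the Rb- label without and with Myc+ also share no arrays but share that estimate of spread. Psme1 was the gene that passed in both, 16.7% of the 6 genes of the first set and 100% of the 1 gene of the second. Over all genes, 206 passed in both with 1 direction, 5.22% of the first set and 22.0% of the second.

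Other genes of the pathway were taken from lists of helpers of the proteasome, and their counts stand beside the 33.3% and 36.3% of all genes that passed with the Myc+ label in p53- and p53- Rb- cells. Among 11 genes of proteasome-associated factors, 2 rose and 3 fell with the Myc+ label in p53- cells, and 3 rose and 2 fell in p53- Rb- cells. Zfand2a, which encodes a stress-induced proteasome adaptor, fell by 2.00 and 1.39, and Ecpas, which tethers proteasomes to other structures, rose by 0.65 and 0.76. Nfe2l1, the gene of the activator NRF1, had intensities of 666.9, 605.7 and 938.2 on WT arrays, 844.6, 925.6 and 931.3 on p53- arrays, 444.7, 502.5 and 448.6 on p53- Myc+ arrays, 1078, 1117 and 798.2 on p53- Rb- arrays, and 546.1, 536.9 and 469.7 on p53- Rb- Myc+ arrays. It fell by 0.93 (adjusted p = 0.000207) and 0.91 with the Myc+ label, and no array labelled Myc+ overlapped the others in either comparison. Among 10 genes of ubiquitin shuttles and the segregase p97, 1 rose and 1 fell (20.0%), and 0 rose and 1 fell (10.0%), below the shares of all genes. Of 28 genes of ubiquitin-conjugating enzymes, which pass ubiquitin to ligases, 3 rose and 5 fell, and 2 rose and 6 fell (28.6% in either), also below those shares. The CCT chaperonin is another large ring that folds cytosolic proteins. Of its 9 genes, 5 rose and 0 fell with the Myc+ label in p53- cells and 4 rose and 0 fell in p53- Rb- cells, with median changes of 0.46 and 0.30, and the 46 proteasome genes had medians of 0.09 and 0.07 beside medians of all genes of -0.09 and 0.12.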

How the data were processed

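Transcripts were measured on 15 arrays, 3 in each of 5 groups. The deposited intensities per probe set were made by the authors in Expression Console 1.1 from Affymetrix, per the submitters' processing notes. How probes were summarised and normalized is not stated there. The number of arrays limits the precision. Of 35556 probe sets, 21789 had 1 gene symbol in the platform annotation, 1621 had several and 12146 were not listed. Where several probe sets named a gene, the brightest on average was used (5 of the 46 genes had several: Psma3, Psma5, Psmb3, Psmc1 and Psmd2). Whether any of these probe sets reads processed copies of its gene was not tested.

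Group means were fitted to log2(intensity + 16), which understates changes of dim genes, with limma 3.58.1 in R 4.3.3 (2-sided, Benjamini-Hochberg over 19938 genes per comparison). This fit had no replicate block, because the labels do not say that numbers pair samples. Arrays of the same number in p53- Myc+ and p53- Rb- Myc+ had correlated deviations (0.102, 0.192 and 0.379). They were therefore taken as pairs in an alternative for that comparison, from the values and not the labels. Correlations were also positive for p53- Rb- with p53- Myc+ (0.113, 0.007 and 0.171) and with p53- Rb- Myc+ (0.036, 0.056 and 0.218), where no such pairs were formed. Alternatives were other added constants, centring, quantile normalization, a filter at the median level, the mean of all probe sets, the groups of a comparison alone, an intensity trend, a replicate block, and leaving out each array.

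The genes and all lists were chosen with earlier results of these data known. Values on every array are given for the 3 highest and 3 lowest passing genes of each comparison, Psmb5 to Psmb7, Psme1 to Psme4 and Psmc3ip. Those of Psma5, Psmd6, Psmg4, Psmb8 and Nfe2l1 were added after being seen.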

Additional observations from a re-analysis of the deposited data

Results flagged for a closer look

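Psmc6 and Psmb11 are listed here because their changes with the Rb- label differed between cells with and without the Myc+ label by a test of the difference itself. In that test 13.6% of all genes passed. For Psmc6 the change in cells labelled Myc+ minus that in cells without was 1.475 ± 0.298 on the log2 scale (SE, limma, adjusted p = 0.00199), and it held in all 25 alternatives. For Psmb11 it was 1.046 ± 0.251 (adjusted p = 0.00736), in all 24 alternatives. Psmb11 is dim, and its intensity was at most 46.4 on any array. Groups of 3 arrays are too small for a test of single arrays.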

How the results depend on the processing

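Of 56 passing pairs of gene and comparison, 27 passed in every alternative run and 0 changed direction; of 266 that did not pass, 50 passed in at least 1 alternative. From WT to p53-, 13 genes passed, and 8 did with 1 added before the logarithm, 21 with 64 added, and 4 to 21 without single arrays. From p53- to p53- Rb-, 6 passed, and 1 to 6 did without single arrays. From p53- Myc+ to p53- Rb- Myc+, 1 passed, and 2 did with 64 added, with genes at or above the median level only, with the mean of all probe sets and with an intensity trend, and 1 to 2 without single arrays. From WT to p53- Rb-, 6 passed, and 3 did with 1 added, 10 with 64 added, 2 each with centring, quantile normalization and the groups of the comparison alone, and 2 to 7 without single arrays. In the difference of the Rb comparisons, 2 passed, and 1 did with genes at or above the median level only, since Psmb11 was then not tested. An alternative chosen after seeing the data left out p53- replicate 2 and p53- Rb- replicate 3 together: 22 genes then passed from WT to p53-, 2 from p53- to p53- Rb-, 2 from p53- Myc+ to p53- Rb- Myc+ and 10 from WT to p53- Rb-. With the Myc+ label 11 rose and 8 fell in p53- cells, and 6 rose and 8 fell in p53- Rb- cells, against 8 and 4 with all arrays. Psmb7 reversed with the Myc+ label in cells without Rb- (-0.089 without p53- replicate 2, and without both arrays, in a range of -0.089 to 0.362 without single arrays) and in p53- Rb- cells (-0.028 without p53- Rb- replicate 3, and without both, and -0.037 without p53- Rb- Myc+ replicate 3, in a range of -0.037 to 0.145), and passed in neither case. Causes were not tested. With quantile normalization, 5 rose and 5 fell from WT to p53-, and 11 rose and 5 fell from p53- to p53- Myc+. With a replicate block over all arrays, 8 rose and 5 fell from WT to p53-, 2 and 3 from p53- to p53- Rb-, 9 and 6 with the Myc+ label in cells without Rb-, 7 and 4 in p53- Rb- cells, 6 and 0 from WT to p53- Rb-, and 2 and 0 in the difference. With the pairing of p53- Myc+ and p53- Rb- Myc+ arrays as a block, 1 gene passed, as without it. No measure of signal over background was used here, so dim genes such as Psma8, Psmb11 and, on arrays labelled Myc+, Psmb8 are the least certain in level.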
